A study of Mus musculus with 8 samples.

Results

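The S100 genes encode small calcium-binding proteins of the EF-hand type, and 10 of them are described here, S100a1, S100a4, S100a6, S100a8, S100a9, S100a10, S100a11, S100a13, S100a14 and S100a16, in a mouse model of breast cancer that spreads to bone. They were chosen as probe sets whose platform annotation gives 1 of these symbols and no other. This found 13 probe sets for 9 genes, out of 34945 probe sets and 18193 genes with a single symbol. The only probe set listing S100a11 also listed 2 further genes, so S100a11 was not measured here. RNA levels came from 8 one-colour arrays in 2 groups, 4 of primary 4T1.2 tumours of the mammary gland and 4 of spine metastases taken from the same 4 mice. 4T1.2 is a clonal subline of the 4T1 mouse mammary carcinoma that forms bone metastases on its own after transplantation, and all mice were of the Balb/c strain. The labels name no treatment and no age. They call the samples tumour epithelial cells, and how these were separated from other cells is not given in the sources used here. Arrays carry no read depth, so the number of arrays limits the precision.

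S100 proteins mostly act as dimers that open a binding face when calcium rises. S100A8 and S100A9 together form calprotectin, which fills the cytosol of neutrophils and of many monocytes, holds back zinc and manganese from microbes, and when released acts through Toll-like receptor 4 and the receptor RAGE. S100A4, S100A6, S100A10 and S100A11 are made by tumour, epithelial and stromal cells and bind cytoskeletal proteins and annexins. Most S100 genes lie together on chromosome 3 of the mouse.

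The comparison made here sets the myeloid pair S100a8 and S100a9 against the other genes, taken by known role as tumour and stromal ones. Which cells made the RNA of either side was not measured. As this pair lies side by side on the chromosome with no annotated gene between them and was high on the same arrays, the 250 bases before each annotated start are shown, with those of S100a4 from the same cluster, whose signal was not higher in metastases. They are from RefSeq, build GRCm38.p6, and lie at chr3:90668821-90669070 on the plus strand for S100a8, chr3:90695722-90695971 on the minus strand for S100a9 and chr3:90603520-90603769 on the plus strand for S100a4. Capitals mark every match, on either strand, to a TATA box (TATAAA), a C/EBP site (TTNNGCAA), a C/EBP core (GCAAT, which shares GCAA with the site), a PU.1 core (GAGGAA), a STAT site (TTCNNNGAA) or an AP-1 site (TGANTCA).
S100a8: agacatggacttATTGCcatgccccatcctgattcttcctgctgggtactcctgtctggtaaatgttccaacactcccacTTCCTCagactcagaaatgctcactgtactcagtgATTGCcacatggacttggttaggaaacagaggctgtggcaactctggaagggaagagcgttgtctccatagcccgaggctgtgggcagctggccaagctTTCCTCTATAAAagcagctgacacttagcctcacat
S100a9: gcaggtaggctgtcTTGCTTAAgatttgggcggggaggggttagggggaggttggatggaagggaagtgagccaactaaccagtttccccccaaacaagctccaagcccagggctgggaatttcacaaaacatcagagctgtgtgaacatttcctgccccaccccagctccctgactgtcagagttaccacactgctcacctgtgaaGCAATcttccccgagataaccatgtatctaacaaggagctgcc
S100a4: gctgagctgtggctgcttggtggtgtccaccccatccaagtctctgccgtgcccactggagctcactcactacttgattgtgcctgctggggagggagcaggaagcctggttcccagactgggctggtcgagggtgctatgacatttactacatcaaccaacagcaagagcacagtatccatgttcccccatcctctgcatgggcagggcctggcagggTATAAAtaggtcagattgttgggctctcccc
In S100a8 the TATA box spans -30 to -25 from the start, PU.1 cores lie at -170 to -165 and -36 to -31, and C/EBP cores at -238 to -234 and -135 to -131. In S100a9 a C/EBP match lies at -236 to -229 and a core at -43 to -39, and in S100a4 the single match is a TATA box at -31 to -26. None of the 3 windows held a STAT or AP-1 match. Over 32851 promoter windows of the same length, 12.4% held the TATA box, 9.56% the C/EBP letters, 23.1% the C/EBP core and 23.3% the PU.1 core. Each match is a description of letters and not of a bound site. Promoter windows were found for 8 of the 10 genes. Among those not shown, S100a16 and S100a11 also held a PU.1 core (-180 to -175 and -153 to -148) and AP-1 matches. The S100a6 window held no match.

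Across the 9 measured genes the calprotectin pair changed most. Taking the brightest probe set of each gene, S100a8, S100a9 and S100a16 were higher in bone metastasis and 0 genes were lower, by limma with Benjamini-Hochberg adjustment over all 18193 genes at an adjusted p under 0.05. Over all genes 21.8% were called, 9.72% higher and 12.1% lower. With the mouse as a block 2 of the 9 were higher and 0 lower, beside 18.1% of all genes called, 7.63% higher and 10.4% lower. The 9 genes had a median log2 difference, metastasis minus primary, of 0.01, beside 0.09 for all genes, and the 7 genes other than the pair had a median of -0.07. Fewer cells of a type and less RNA per cell cannot be told apart in such bulk samples.

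**Figure D1:**
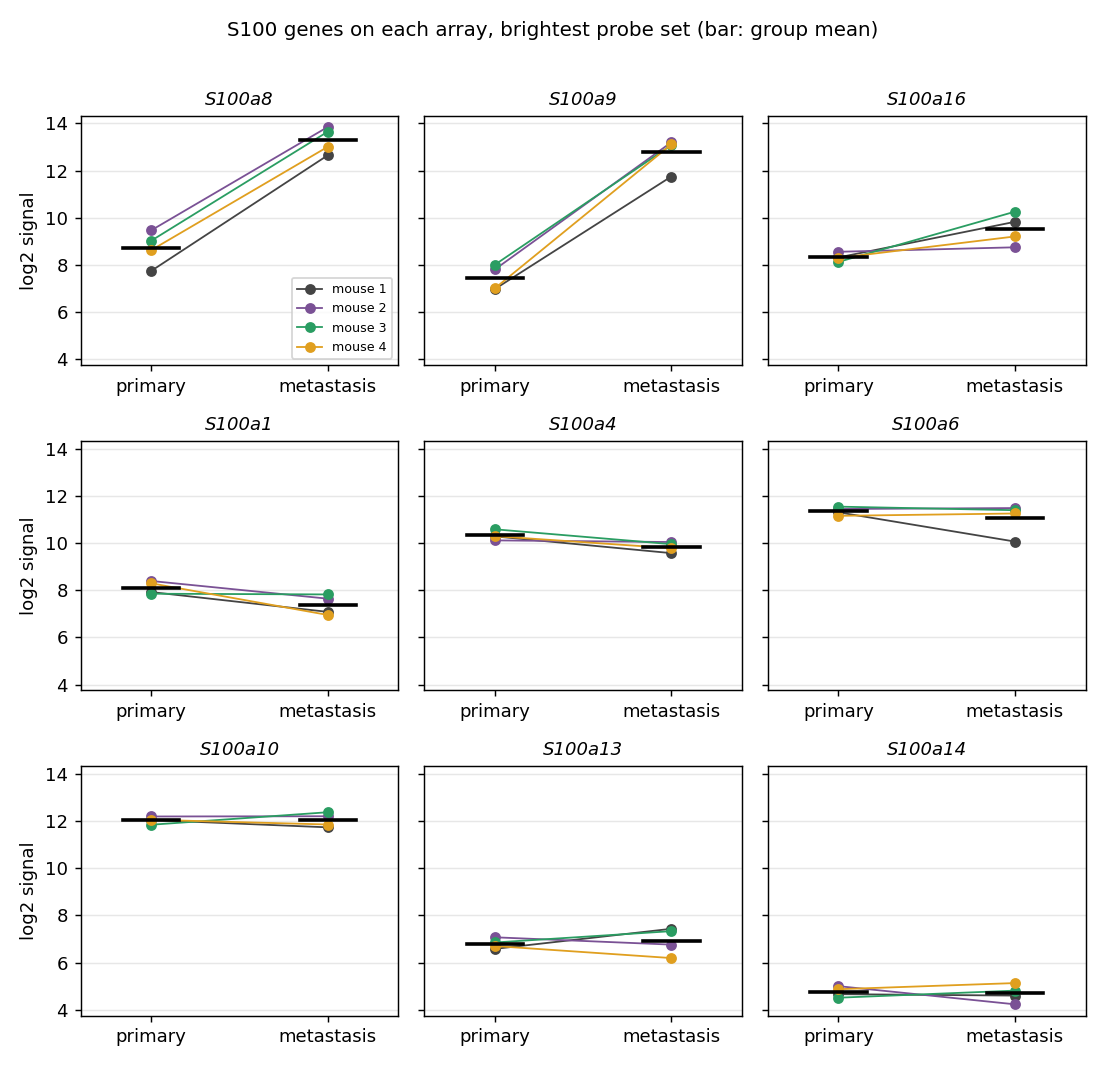
Log2 signal of the 9 measured S100 genes (brightest probe set of each) on every array, primary tumour at left and bone metastasis at right of each panel, with a line per mouse and a black bar at each group mean. S100a8 and S100a9 climb steeply in all 4 mice, S100a16 climbs less, and the other 6 genes did not pass the threshold.

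S100a8, the smaller chain of calprotectin, had log2 signals of 7.75, 9.47, 9.03 and 8.63 in the primary tumours of mice 1 to 4. In the metastases of the same mice it had 12.65, 13.85, 13.65 and 13.01. The groups lay far apart, and mouse 1 was the lowest of each. The primary mean of 8.72 ± 0.73 (SD, n = 4) compared with a metastasis mean of 13.29 ± 0.56 (SD, n = 4), a log2 difference of 4.57 with a standard error (SE) of 0.40, or 23.8-fold (limma adjusted p = 0.000469).

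S100a9, the larger chain, had log2 signals of 6.98, 7.81, 8.01 and 7.01 in primary tumours and of 11.75, 13.20, 13.08 and 13.11 in metastases. The groups did not overlap, and among the metastases mouse 1 stood below the other 3, which lay close together. Its means were 7.45 ± 0.53 and 12.78 ± 0.69 (SD, n = 4 each), a log2 difference of 5.33 (SE 0.38), or 40.2-fold (limma adjusted p = 0.000223). By size of difference S100a9 ranked 20 and S100a8 ranked 34 from the highest of 18193 genes.

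The chains did not rise by the same amount in every mouse. The rise of S100a8 was 4.90, 4.38, 4.62 and 4.38 on the log2 scale in mice 1 to 4, and that of S100a9 was 4.76, 5.40, 5.07 and 6.09. S100a9 therefore gained less than S100a8 by 0.14 in mouse 1 (a difference of -0.14) and more by 1.01, 0.45 and 1.71 in mice 2, 3 and 4. With the mouse as a block the SE was 0.18 for S100a8 and 0.26 for S100a9, and both remained past the threshold (limma adjusted p = 0.00111 and 0.00147).

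Set against the other genes, the mean rise of the pair was 4.83, 4.89, 4.84 and 5.24 in mice 1 to 4, while the median change of the other 7 genes was -0.31, -0.06, 0.30 and -0.20. The gap between them was 5.14, 4.95, 4.54 and 5.44, a mean of 5.02 ± 0.38 (SD, n = 4 mice). No test was made of this gap, since the genes were grouped by known role with earlier results at hand. The highest of the other genes was S100a16 in all 4 mice, at 1.51, 0.19, 2.12 and 0.90. The lowest was a different gene each time, S100a6 in mouse 1 (-1.24), S100a14 in mouse 2 (-0.77), S100a4 in mouse 3 (-0.63) and S100a1 in mouse 4 (-1.34).

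S100a16, a broadly expressed family member of epithelial and other tissues, had log2 signals of 8.32, 8.56, 8.13 and 8.30 in primary tumours and 9.83, 8.75, 10.26 and 9.21 in metastases on its brighter probe set. Its metastasis arrays spread widely, with mouse 2 only just above the primary tumours and mice 1 and 3 highest. The difference was 1.18 (SE 0.31), or 2.27-fold (limma adjusted p = 0.0276), and the call was lost with the mouse as a block (limma adjusted p = 0.0594). A second probe set, 1425560_a_at, had means of 8.19 ± 0.24 and 8.60 ± 0.25 (SD, n = 4 each), a difference of 0.41 (SE 0.18, limma adjusted p = 0.147 over all probe sets), and it was lower in the metastasis of mouse 2. The adjusted p stood near the threshold. Leaving out any 1 of the 4 primary arrays kept the difference at 1.11 to 1.26 but ended the call (adjusted p from 0.0529 to 0.0807), in fits that also called fewer of all genes, 2236 to 2879 in place of 3975. Without metastasis array 1 or 3 it was 1.07 (adjusted p = 0.0506) or 0.93 (0.0503), and without mouse 1, 3 or 4 the adjusted p was 0.0997, 0.134 and 0.0939. Arrays 1 and 3 of the metastases were also those with the lowest keratin signal (below), and without them the difference was 0.65 (limma adjusted p = 0.075).

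S100a4, known as metastasin or fibroblast-specific protein, binds the heavy chain of non-muscle myosin. It had log2 signals of 10.28, 10.11, 10.58 and 10.29 in primary tumours and 9.57, 10.04, 9.95 and 9.78 in metastases. The metastases lay just below the primary tumours without overlap, with a difference of -0.48 (SE 0.17) that did not pass the threshold (limma adjusted p = 0.0713).

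S100a6, also called calcyclin, had 11.30, 11.44, 11.54 and 11.15 in primary tumours and 10.06, 11.48, 11.39 and 11.25 in metastases. Mouse 1 alone had a low metastasis value, and the other 3 metastases lay within the primary range. The difference was -0.32 (SE 0.31, limma adjusted p = 0.478), and without metastasis array 1 it was 0.010 (adjusted p = 0.964).

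S100a10, or p11, is the light chain that pairs with annexin A2 at the cell membrane, and its 3 probe sets disagreed. The brightest, 1456642_x_at, had 12.04, 12.19, 11.84 and 12.05 in primary tumours and 11.73, 12.20, 12.37 and 11.85 in metastases, overlapping groups with a difference of 0.01 (SE 0.18, limma adjusted p = 0.976). On 1416762_at the signals were 10.66, 11.13, 11.18 and 11.25 in primary tumours and 8.44, 9.06, 8.73 and 7.94 in metastases. Here every metastasis lay well below every primary tumour, a difference of -2.51 (SE 0.25), or 5.69-fold lower (limma adjusted p = 0.000869 over all 34945 probe sets). The third, 1439348_at, gave -0.47 (SE 0.30, adjusted p = 0.294), with mouse 2 higher in metastasis. Whether S100a10 was lower thus rested on the probe set.

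The control probe sets of the arrays moved with the groups. The 5' control probe set of actin read 1.08 to 1.90 (log2) under its 3' one in primary tumours and 4.55 to 6.18 under it in metastases, and that of Gapdh 1.55 to 2.59 and 4.62 to 6.08 under. The part of this in the disagreement between probe sets of S100a10 was not tested. With the actin drop as a covariate, which separates the groups without overlap, limma left 0 of all 18193 genes past the threshold (2470 at an unadjusted p under 0.05), 1416762_at had a difference of -0.75 (SE 0.72, adjusted p = 0.621). In the same fit S100a8 and S100a9 had differences of 5.29 (SE 1.53) and 4.53 (SE 1.45), each with a limma adjusted p of 0.354, and S100a16 of 0.14 (SE 1.13, adjusted p = 0.955).

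S100a1, best known from heart and skeletal muscle where it binds the ryanodine receptor, had 7.92, 8.39, 7.85 and 8.29 in primary tumours and 7.08, 7.64, 7.82 and 6.95 in metastases on its brighter probe set, 1419814_s_at. The highest metastasis, mouse 3, lay close to the lowest primary tumour, and the difference was -0.74 (SE 0.24, limma adjusted p = 0.057). The other probe set of S100a1, 1417421_at, lay between 4.90 and 5.31 on all arrays, at the level of the array median, and differed by 0.08 (SE 0.14). The call turned on single arrays here too, with an adjusted p of 0.0494 without metastasis array 2 and of 0.0396 without metastasis array 3.

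S100a13, which takes part in the release of fibroblast growth factor 1 and interleukin 1 alpha from cells, ranged from 6.58 to 7.07 in primary tumours and from 6.19 to 7.43 in metastases. It was higher in 2 mice and lower in 2, with a difference of 0.12 (SE 0.28, limma adjusted p = 0.766). S100a14, an epithelial family member, lay between 4.23 and 5.13, under the array median on all 8 arrays, and its difference was -0.07 (SE 0.22, limma adjusted p = 0.843). No statement about its level can be made from so dim a signal.

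**Figure D2:**
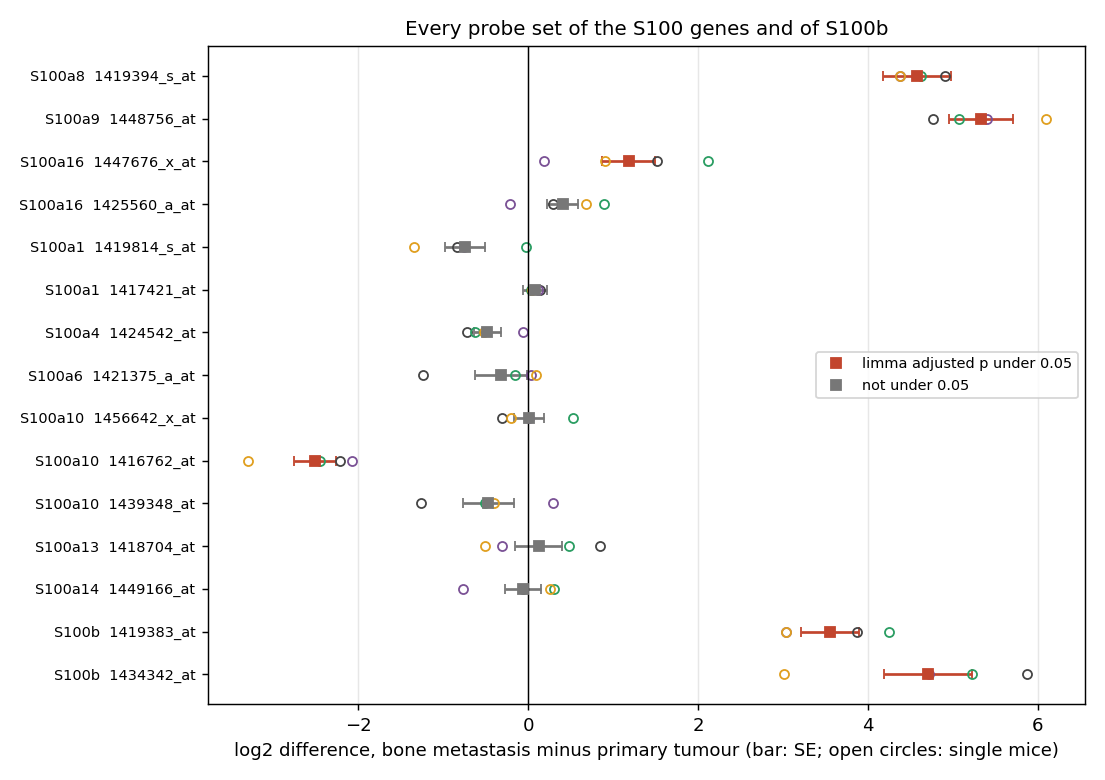
Log2 difference between bone metastasis and primary tumour for the 13 probe sets of the 9 S100 genes and the 2 of S100b, as squares with SE bars, with open circles for single mice (mouse 1 dark grey, 2 purple, 3 green, 4 orange), some of them hidden by a square. Red squares passed the threshold, and the 3 probe sets of S100a10 and the 2 of S100a16 do not sit together.

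Counted by probe set, 3 of the 13 were higher (S100a8, S100a9 and 1 of S100a16) and 1 was lower (S100a10), beside 8.72% and 11.9% of all 34945 probe sets (20.6% in either direction). With the mouse as a block 2 were higher and 1 was lower, beside 6.48% and 9.99% (16.5% in either direction). Groups that did not overlap were found for 3 probe sets with all metastases above, beside 14.3% of all probe sets, and for 3 with all metastases below (1 each of S100a1, S100a4 and S100a10), beside 14.0%.

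Along chromosome 3 the change was not shared by the cluster. In gene order S100a1, S100a13, S100a14 and S100a16 come first with differences of -0.74, 0.12, -0.07 and 1.18. Then come S100a3 (0.26, SE 0.19), S100a4 (-0.48), S100a5 (0.29, SE 0.17), S100a6 (-0.32), S100a8 and S100a9, with S100a7l2 (0.16, SE 0.13) following and S100a10 at the far end. The annotation places S100a7a directly before S100a8, and neither it nor S100a2 was measured here. S100a3, S100a5 and S100a7l2 lay under the array median on all 8 arrays, so a low level of these genes cannot be told from background.

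**Figure D3:**
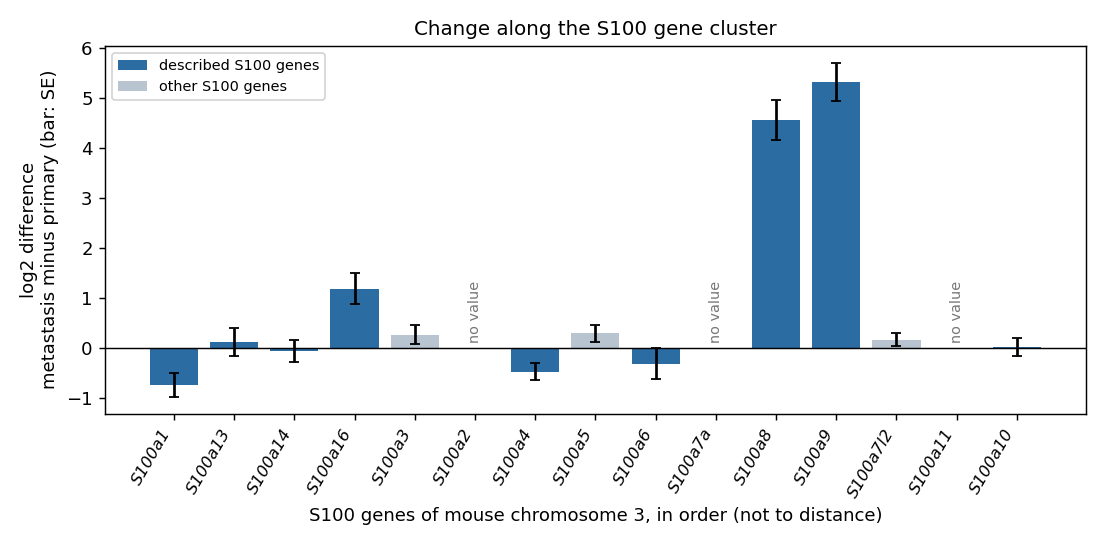
Log2 difference (bars, with SE) of the S100 genes of mouse chromosome 3, drawn in their order and not to distance, with the described genes in dark blue and other family genes in grey. S100a8 and S100a9 reach 4.57 and 5.33 while their measured neighbours S100a6 and S100a7l2 lie at -0.32 and 0.16.

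Among other family genes measured, 6 in all, S100b was higher and the other 5 did not pass the threshold. S100b encodes a protein of glial cells, cartilage and fat and lies on another chromosome, outside the cluster. It had log2 signals of 5.44, 5.32, 5.73 and 5.43 in primary tumours and 9.32, 8.37, 9.99 and 8.47 in metastases, without overlap and with mouse 3 highest. The difference was 3.55 (SE 0.35), or 11.7-fold (limma adjusted p = 0.000736). Its second probe set, 1434342_at, had 4.49, 4.43, 4.45 and 4.53 in primary tumours and 10.36, 9.15, 9.67 and 7.54 in metastases, and rose by 4.70 (SE 0.51, adjusted p = 0.00114). Since its primary mean of 4.48 lay under the array median, that difference is not exact. S100g differed by 0.11 (SE 0.14), and S100pbp, which encodes a protein that binds S100P, by -0.22 (SE 0.28).

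Of the receptors and signalling proteins through which S100A8 and S100A9 act, 1 of 9 measured was higher and 4 were lower. Over all genes 9.72% were higher and 12.1% lower. Ager, which encodes RAGE, had 5.56 to 5.95 in primary tumours and 5.99 to 7.79 in metastases and rose by 1.46 (SE 0.38, limma adjusted p = 0.0271). Its other probe set, 1420428_at, differed by 0.15 (SE 0.13) but was above the array median on only 2 of 8 arrays. Tlr4 fell by 1.66 (SE 0.48, adjusted p = 0.0403), and on its probe set 1418163_at by 0.71 (SE 0.23) without passing (adjusted p = 0.0605). The Tlr4 co-receptors Ly96 and Cd14 fell by 1.92 (SE 0.50) and 1.88 (SE 0.46). Bsg, which encodes basigin, reported in human cells to bind S100A9, fell by 1.76 (SE 0.36, adjusted p = 0.0106). Tlr4 and Ly96 overlapped between the groups through mouse 2, whose metastasis had 7.58 and 7.76. These calls were not firm: among 24 alternatives Tlr4 passed in 10, Ly96 in 12, Cd14 in 16 and Bsg in 20, and Ager in 11 of 23, with single arrays among those that ended all of these but Bsg. The median difference of the 9 was -0.72. Macrophages express Tlr4, Ly96 and Cd14 among other cells, and macrophage markers were lower as given below; their part in these values was not tested.

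Of the annexins and other binding partners of the S100 proteins, 1 of 18 measured was higher, 10 were lower and 7 did not pass. This compares with 9.72% of all genes higher and 12.1% lower. The list had a median of -1.12. Anxa2, the partner of S100a10, had 12.44, 12.12, 12.46 and 12.60 in primary tumours and 11.16, 12.02, 11.81 and 11.13 in metastases. It fell by 0.88 (SE 0.24, limma adjusted p = 0.0308), but not past the threshold with the mouse as a block (adjusted p = 0.0759). Its probe set 1437692_x_at differed by 0.39 (SE 0.16) without passing the threshold (adjusted p = 0.121), and 1437691_at lay under the array median on all 8 arrays. Anxa1, which S100A11 binds, fell by 1.70 (SE 0.35), and Anxa4 differed by -2.55 (SE 0.32, adjusted p = 0.00158). Anxa5, Anxa6, Anxa3 and Anxa7 were lower, with differences of -1.91, -1.26, -2.86 and -1.90, and with the block Anxa7 did not pass (adjusted p = 0.0718). Of the other probe sets of Anxa7, 1438764_at was above the array median on all 8 arrays and differed by 0.05 (SE 0.22, adjusted p = 0.893). However, 1416137_at, also above it on all 8 arrays, fell by 0.87 (SE 0.21, limma adjusted p = 0.0214) without overlap. With the mouse as a block 1416137_at still passed (limma adjusted p = 0.0449). Anxa3 had 6.72, 10.16, 7.33 and 7.40 in metastases, and without the high array 2 its difference was -3.61. Cacybp, which takes its name from binding calcyclin, had a difference of -1.09 (SE 0.16), the co-chaperone Sgta of -1.44 (SE 0.29) and Il1a, released with S100A13, of -2.48 (SE 0.75), all past the threshold. Without metastasis arrays 1 and 2 in turn Il1a differed by -1.88 (adjusted p = 0.0642) and -3.17. Anxa2, Anxa7 and Il1a passed in 9, 11 and 10 of 24 alternatives and lost their calls when 1 of several arrays was left out, while Anxa4, Anxa5 and Cacybp passed in 22.

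Myh9, the non-muscle myosin heavy chain that S100A4 binds, rose by 1.93 (SE 0.16, limma adjusted p = 0.000396) on its brightest probe set, from 11.37 to 11.49 in primary tumours to 13.13 to 13.69 in metastases. Of its 5 probe sets, which disagreed, 1420171_s_at also rose, by 1.38 (SE 0.25, adjusted p = 0.00709). However, 1420170_at fell by 1.55 (SE 0.32, adjusted p = 0.0121) and 1417472_at differed by -0.11 (SE 0.26). For Anxa6 likewise 1429247_at rose by 0.94 (SE 0.22, adjusted p = 0.0176) while 1429246_a_at fell by 1.63 (SE 0.30, adjusted p = 0.00755) together with the brightest. The primary mean of 1429247_at (4.78) and the metastasis mean of 1429246_a_at (4.39) lay under the array median, so these differences are not exact. Mdm2, whose protein some S100 proteins bind, did not pass on its brightest probe set, but 1423605_a_at differed by -3.38 (SE 0.60, adjusted p = 0.00686). For Anxa7, 1416137_at fell with the brightest probe set and 1438764_at did not. The results for Myh9, Anxa6, Anxa7 and Mdm2 thus rested on the probe set, as with S100a10. So did those for Ahnak and for Alcam of the receptor list, neither called on its brightest probe set. Ahnak 1428058_at fell by 0.92 (SE 0.20, limma adjusted p = 0.0153), with a metastasis mean (5.11) under the array median. Alcam 1437466_at rose by 1.75 (SE 0.42, limma adjusted p = 0.0205).

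Markers of other cells moved with these genes, and their counts stand beside 9.72% of all genes higher and 12.1% lower. Of 19 neutrophil and granulocyte precursor genes, a list without S100a8 and S100a9, 9 were higher and 1 (Itgam) was lower, with a median of 1.93 and a summed linear signal of 4745 to 5977 on primary arrays and 11611 to 35529 on metastasis arrays. The granule genes Ngp, Camp, Mpo and Ctsg rose by 6.33 (SE 0.39), 4.28 (SE 0.25), 3.40 (SE 0.28) and 2.90 (SE 0.25). The list median lay 1.37, 3.13, 1.26 and 1.31 above the primary mean on metastasis arrays 1 to 4, and none of its genes had a mean under the array median in metastases. Array 2 was highest for the list and for S100a8, and array 1 was lowest for both S100a8 and S100a9. For S100a9 arrays 2, 3 and 4 lay too close together, at 13.20, 13.08 and 13.11, to be put in order. In the list arrays 1, 3 and 4 lay too close together, at 1.37, 1.26 and 1.31, to be put in order. The part of granulocyte content in the rise of this pair was not tested.

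Genes of macrophages and monocytes, the other myeloid cells of the tumour, went the other way. Of 14 measured 0 were higher and 11 lower, beside 9.72% and 12.1% of all genes. The list had a median of -2.75 and a summed signal of 42645 to 75475 on primary and 8494 to 24283 on metastasis arrays. Adgre1, Fcgr1, C1qc and C1qa had differences of -2.36 (SE 0.26), -3.78 (SE 0.47), -3.05 (SE 0.39) and -3.29 (SE 0.43).

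Nerve and glia genes, 6 of 10 higher and 0 lower with a median of 2.82, and cartilage genes, 4 of 10 higher and 0 lower with a median of 0.78, moved with S100b. Of all genes 9.72% were higher and 12.1% lower. The summed signals of the nerve and cartilage lists were 681 to 724 and 736 to 1113 on primary arrays. On metastasis arrays they were 5371 to 12828 and 1248 to 3188. The neurofilament genes Nefl, Nefh and Nefm and the neuronal tubulin gene Tubb3 rose by 8.05 (SE 0.31), 4.41 (SE 0.25), 5.45 (SE 0.51) and 3.81 (SE 0.67), and the cartilage genes Comp, Col2a1, Acan and Cnmd by 4.13 (SE 0.40), 1.47 (SE 0.32), 3.12 (SE 0.73) and 1.29 (SE 0.30). The primary means of Nefl, Nefm, Tubb3, Col2a1 and Cnmd (3.97, 4.73, 4.59, 4.89 and 3.70) lay under the array median, so their differences are not exact. Without metastasis array 3 the difference was 3.12 for Tubb3 and 2.36 for Acan, both still called. Of the nerve list 5 genes lay under the array median in primary tumours and 0 in metastases, and of the cartilage list 4 lay under it in both groups, Col11a1, Matn1, Hapln1 and Cnmd. On metastasis arrays 1 to 4 the nerve median lay 4.33, 1.97, 2.94 and 1.58 above the primary mean and that of cartilage 1.09, 0.34, 0.76 and 0.76. Their part in the rise of S100b was not tested.

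Skeletal muscle genes, looked at for S100a1, had 2 of 12 higher (Pvalb by 1.48 and Tnnt3 by 0.75) and 0 lower. This count and those of the lists that follow stand beside 9.72% of all genes higher and 12.1% lower. Of the 12 muscle genes 6 lay under the array median in both groups. The summed signal of the list was 397 to 437 on primary and 491 to 745 on metastasis arrays. B lineage genes had 6 of 9 higher and 0 lower (median 3.39, summed signal 611 to 982 and 3057 to 41813), led by Ebf1, Ms4a1, Cd79a and Cd79b at 6.98, 4.03, 3.39 and 4.31. The primary means of Ebf1, Klrd1, Ibsp and Pvalb lay under the array median, so the differences of these genes are not exact. Tnnt3 lay under it on all 8 arrays, so no statement about its level can be made. Cd79b differed by 3.72 and 4.89 without metastasis arrays 1 and 3 in turn. T and NK cell genes had 2 of 11 higher, Gzma and Klrd1 at 2.19 and 2.08 (summed signal 652 to 1098 and 1051 to 1446), and erythroid genes 0 of 7 either way (212 to 254 and 249 to 346). Endothelial genes had 1 of 8 higher, Cldn5 at 1.84 (406 to 608 and 577 to 1007), and osteoblast genes 1 of 5, Ibsp at 2.74 (159 to 209 and 252 to 444).

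Checked against its label, the epithelial tumour list had 3 of 15 genes lower (Krt19 by 3.36, Cldn4 by 1.55 and Spint1 by 1.44) and 0 higher. Over all genes 12.1% were lower and 9.72% higher. The list had a summed signal of 14913 to 15835 on primary arrays and 1472 to 14133 on metastasis arrays. Krt19 had a metastasis mean of 4.70, under the array median, so its difference is not exact. Krt8, a keratin of simple epithelia, had 13.32, 13.07, 13.19 and 13.22 in primary tumours and 7.34, 12.39, 9.80 and 12.97 in metastases. Metastasis arrays 1 and 3 were thus the lowest, though still above the median of all probe sets on each array. Without both arrays S100a8 and S100a9 were still called, and the gap between the pair and the other genes was 5.28. The part of tumour cell content in the rise of the pair was not tested. Fibroblast genes had 2 of 12 higher (Dcn by 2.51 and Thy1 by 3.82) and Pdgfra lower by 2.15, with a summed signal of 3825 to 12863 on primary and 7915 to 17063 on metastasis arrays.

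**Figure D4:**
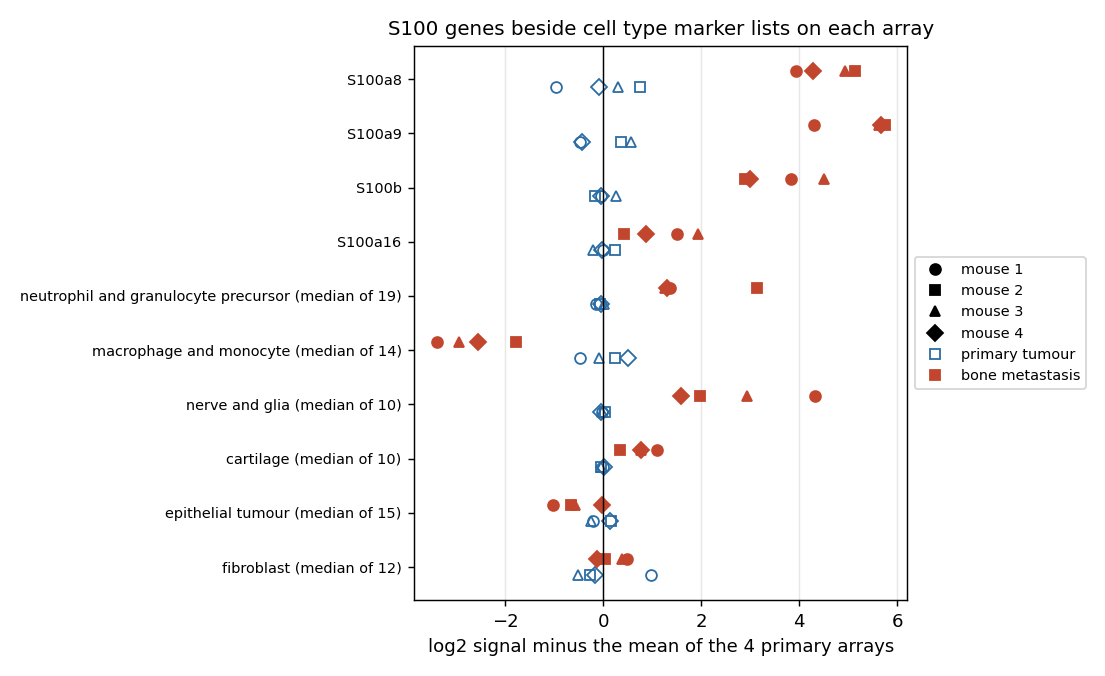
Log2 signal of S100a8, S100a9, S100b and S100a16, and the median over 6 marker lists, on each array after subtracting the mean of the 4 primary arrays (open blue symbols for primary tumour, filled red for bone metastasis, shape for mouse). S100a9 lies 4.29 to 5.75 above the primary mean on metastasis arrays, the neutrophil list 1.26 to 3.13 above it, and the macrophage list 1.79 to 3.40 below it.

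The genes most like S100a8 and S100a9 were sought by Pearson's r over the 8 arrays after subtracting each group's mean, among genes whose mean signal lay above the median of all genes, as a description without a p. For S100a8 these were Ptger2 (0.974), Coa7 (0.972), Tmem189 (0.971), Hp (0.964) and Apoc2 (0.960). For S100a9 they were Ocstamp (0.946), Kcnk1 (0.932), Usp13 (0.921), Tspyl2 (0.914) and Gata2 (0.913). S100a8 and S100a9 had an r of 0.766 with each other and S100a6 and S100a9 of 0.903, over arrays that share their quality and cell content, and metastasis array 1 was the lowest of its group for all 3. Of these 10 genes Hp and Gata2 were called higher in metastasis, by 2.04 and 1.46, while Ptger2, Tmem189 and Ocstamp were called lower, by -1.76, -1.04 and -2.15.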

How the data were processed

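Total RNA was labelled with biotin after linear amplification and hybridised to Affymetrix arrays, 1 array per sample, per the labels' protocols. The values the authors deposited are log2 signals, and the submitters' processing notes name RMA without a version. The 45101 probe sets comprised 64 controls, 34945 with a single symbol on the platform, 932 with more and 9160 without. Each of 18193 genes was represented by its brightest probe set. The deposited values were fitted with limma 3.58.1 in R 4.3.3 (lmFit, eBayes, metastasis minus primary), and p-values were adjusted by the Benjamini-Hochberg method over all genes, or over all named probe sets, with a threshold of 0.05. On simulated data for this comparison over 18193 genes, 86% of 100 genes changed by 2 on the log2 scale and 99% of 100 changed by 5 were recovered, with 8 false calls. The simulated spread of a gene was the same in both groups. In the data it could differ, as for Anxa3 (SD 0.09 in primary tumours and 1.54 in metastases), so these figures do not give the error rate here.

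Arrays pair by mouse, per the series' design text, and deviations from the group means correlated at 0.17, 0.01, 0.02 and -0.11 within mice 1 to 4, so the mouse entered as a block in an alternative fit. Correlations between arrays were 0.981 to 0.993 among primary tumours and 0.903 to 0.957 among metastases. The genes described and the gene lists were chosen with earlier results of these data known. Named from each list were the genes past the threshold, at most 4 with the smallest adjusted p for marker lists, and every measured S100 gene. Itgam was named after its values were seen. Linear signal is 2 to the power of the log2 value. Values under the array median were treated as dim. Other scalings, filters, probe set rules, an RNA quality covariate and left-out arrays were tried as alternatives.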

Additional observations from a re-analysis of the deposited data

Results flagged for a closer look

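A sample far from the other 3 of its group, by Dixon's test, was found in 3 of 42 groups tested, and chance alone gives some such cases. S100a9 on metastasis array 1 had a log2 signal of 11.75, against 13.08 to 13.20 on the other 3, with a gap of 0.913 of the group's range. S100a6 on the same array had 10.06, against 11.25 to 11.48 (0.839 of the range). S100a7l2 on primary array 1 had 3.25, against 3.37 to 3.39 (0.911 of the range), at a signal under the array median. Metastasis array 1 was also the one with the lowest Krt8 signal, 7.34, and the part of this in its low S100a6 and S100a9 was not tested.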

How the results depend on the processing

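The gap between the S100a8 and S100a9 rise and the other genes was 4.81 to 5.26 when single arrays or mice were left out, and S100 genes and probe sets called numbered 2 to 4 and 3 to 5. With the actin covariate, and with only mice 1 and 2, 0 S100 genes and 0 probe sets were called by limma, in fits that called 0 of 18193 genes (2470 and 3539 at an unadjusted p under 0.05). S100a8, S100a9 and S100b were called in every alternative but these, where the differences were 5.29, 4.53 and 3.34 with the covariate (adjusted p from 0.354 to 0.36) and 4.64, 5.08 and 3.46 in mice 1 and 2. With the mouse as a replicate block, 2 S100 genes were called, and S100a16, Anxa2, Anxa7, Spint1 and Pdgfra lost their calls. With 75th percentile scaling the median of all genes went from 0.09 to 0.41 and the calls went from 1768 higher and 2207 lower to 3102 higher and 1766 lower. The 3975 genes called became 2612, 2324 and 2236 without primary arrays 2, 3 and 4, and 1405 and 1942 without mice 3 and 4. Among single genes and probe sets 1319 values kept their side, 232 lost a call, 4 gained one and 42 turned. Taking the most variable probe set gave S100a10 -2.51 (adjusted p = 0.000716) and the mean of its probe sets -0.99 (adjusted p = 0.00986). Near-zero differences, and with the actin covariate also larger ones, changed sign as follows, and the cause was not tested. Leaving out single arrays or mice, S100a6 ranged from -0.46 to 0.010, S100a10 from -0.17 to 0.11, S100a13 from -0.12 to 0.37, S100a14 from -0.21 to 0.17 and S100pbp from -0.44 to 0.040. S100a6 was 0.010 without metastasis array 1 and 0.001 without arrays 1 and 3. S100a10 was -0.17 with the actin covariate, -0.056 without primary array 3, -0.045 and -0.10 without metastasis arrays 2 and 3, -0.17 without mouse 3, -0.004 without metastasis arrays 1 and 3 and -0.15 in mice 1 and 2. S100a13 was -0.042 and -0.009 without metastasis arrays 1 and 3 in turn, -0.12 without mouse 1, -0.33 without both arrays and -0.018 in mice 3 and 4. S100a14 was 0.25 with 75th percentile scaling, 0.015 without primary array 2, 0.088 without metastasis array 2, 0.17 without mouse 2 and 0.28 in mice 3 and 4. S100pbp was 0.092 with that scaling, 0.040 without mouse 3 and 0.18 in mice 1 and 2, and the dim S100a1 probe set was -0.031 after quantile normalization. With the actin covariate the signs of S100a7l2 (-0.19), S100g (-0.037), S100pbp (1.09), 1425560_a_at of S100a16 (-0.89), Ager (-0.96), Bsg (0.56), Cd14 (0.43), Ly96 (1.22), Tlr4 (2.23), Sgta (1.11), Anxa1 (0.90), Anxa3 (0.19), Anxa2 (0.16), Il1a (0.073), Anxa7 (3.53), Thy1 (-0.16) and Tnnt3 (-0.081) turned. Several of these were large and called in the main fit, such as Anxa3 (-2.86), Il1a (-2.48) and Thy1 (3.82). Their SEs with the covariate were 2.28, 2.75 and 2.12. As the actin drop separates the groups without overlap, the turned signs cannot be read as reversals. Signal over background limits S100a14, S100a3, S100a5, S100a7l2 and S100g.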
